A study of Mus musculus with 30 samples.

Results

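Transcripts of 10 genes of MHC class I antigen presentation were followed in mouse erythroleukemia (MEL) cells with and without Abcb10: the heavy chain genes H2-K1, H2-D1, H2-T23 and H2-T24, the light chain gene B2m, the peptide transporter genes Tap1 and Tap2, the tapasin gene Tapbp, and the immunoproteasome genes Psmb8 and Psmb9. They are 10 of the 54532 genes in the count table and were found by gene symbol. The list was chosen by looking at values in these same libraries, without a stated contrast or cut-off. The differences below are therefore descriptions of size against the spread between libraries, and an adjusted p beside them is not independent support.

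Class I molecules show peptides from inside the cell to CD8 T cells. The proteasome cuts proteins into peptides, and an immunoproteasome forms when inducible subunits replace their constitutive counterparts. The TAP transporter moves the peptides into the endoplasmic reticulum, where tapasin helps load them onto a heavy chain paired with beta-2 microglobulin. H2-K1 and H2-D1 encode classical heavy chains, and H2-T23 encodes the nonclassical molecule Qa-1. Interferons induce most genes of this pathway.

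MEL cells are a virus-transformed mouse line that starts hemoglobin synthesis in DMSO. WT MEL cells (line DS19) were compared with Abcb10-null MEL cells, made with a lentiviral CRISPR/Cas9 construct against exon 1 of Abcb10 and grown from a single clone. Abcb10 encodes a transporter of the mitochondrial inner membrane. Each genotype was sampled without DMSO (day 0) and at days 2 and 5 in 1.5% DMSO, with 5 libraries labelled as biological replicates in each of the 6 groups. The labels of the WT libraries do not say whether those cells carried the control (mCherry) construct of the study. The effect of a single clone and that of Abcb10 cannot be told apart.

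Library totals ran from 9906783 to 20157768 counts. Values are given in CPM, counts divided by the TMM-scaled library total and scaled to 1e6. The targeted gene itself, Abcb10, had 112 to 126 CPM in WT libraries and 67.2 to 79.4 CPM in Abcb10-null libraries at day 0, and 1152 to 1264 CPM against 177 to 237 CPM at day 5. At day 2, Abcb10-null replicate 3 stood apart with 312 CPM of Abcb10, against 162 to 189 CPM in the other 4 Abcb10-null libraries. Replicate 4 of Abcb10-null cells at day 5 had the lowest total, 9906783 counts, yet 36511 genes with a count, against 17472 to 29986 in the other 29 libraries. Erythroid markers were present, with 14 of 16 above 1 CPM on average in WT cells at day 0. Lymphocyte markers summed to at most 1.31 CPM in any day 0 library.

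Promoter sequences were available for 8 of the 10 genes, from RefSeq on GRCm38.p6, each from 250 bases before to 50 bases after the transcription start. Both strands were searched for a kappa B core (GGGATTCCC), an interferon-stimulated response element core (GAAANNGAA) and a gamma-activated site core (TTCNNNGAA). The 5 promoters that held a match are shown because these elements are the known entry points of NF-kappa B and interferon signals to class I genes, and that of Tap1 because Psmb9 shares it. Matches are in capitals, and no match overlapped another.
H2-K1: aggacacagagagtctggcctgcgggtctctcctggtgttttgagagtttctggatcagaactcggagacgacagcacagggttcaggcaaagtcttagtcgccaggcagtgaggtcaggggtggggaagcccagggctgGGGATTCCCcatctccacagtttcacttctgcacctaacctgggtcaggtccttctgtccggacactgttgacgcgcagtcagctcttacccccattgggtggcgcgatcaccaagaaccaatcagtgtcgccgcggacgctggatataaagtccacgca
H2-D1: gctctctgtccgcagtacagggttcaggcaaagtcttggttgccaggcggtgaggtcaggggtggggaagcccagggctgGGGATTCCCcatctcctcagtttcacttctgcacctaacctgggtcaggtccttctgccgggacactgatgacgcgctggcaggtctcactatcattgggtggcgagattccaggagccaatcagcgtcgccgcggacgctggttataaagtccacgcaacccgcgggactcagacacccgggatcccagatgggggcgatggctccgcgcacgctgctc
H2-T23: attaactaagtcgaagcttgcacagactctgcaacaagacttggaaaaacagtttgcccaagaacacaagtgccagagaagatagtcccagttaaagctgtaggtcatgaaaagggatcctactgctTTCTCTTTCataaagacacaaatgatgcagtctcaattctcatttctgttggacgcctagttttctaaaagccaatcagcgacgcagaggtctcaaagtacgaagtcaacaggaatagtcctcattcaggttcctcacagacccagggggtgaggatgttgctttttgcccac
B2m: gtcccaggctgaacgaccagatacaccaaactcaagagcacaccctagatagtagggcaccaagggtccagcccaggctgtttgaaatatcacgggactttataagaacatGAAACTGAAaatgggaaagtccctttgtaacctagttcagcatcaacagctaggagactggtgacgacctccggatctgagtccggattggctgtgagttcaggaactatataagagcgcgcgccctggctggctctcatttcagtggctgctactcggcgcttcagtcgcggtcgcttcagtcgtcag
Psmb8: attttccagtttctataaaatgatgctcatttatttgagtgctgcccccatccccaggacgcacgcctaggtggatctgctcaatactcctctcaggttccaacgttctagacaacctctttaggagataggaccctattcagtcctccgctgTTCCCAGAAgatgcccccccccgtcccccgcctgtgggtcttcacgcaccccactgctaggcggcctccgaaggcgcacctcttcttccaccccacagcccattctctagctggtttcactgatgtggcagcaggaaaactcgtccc
Tap1: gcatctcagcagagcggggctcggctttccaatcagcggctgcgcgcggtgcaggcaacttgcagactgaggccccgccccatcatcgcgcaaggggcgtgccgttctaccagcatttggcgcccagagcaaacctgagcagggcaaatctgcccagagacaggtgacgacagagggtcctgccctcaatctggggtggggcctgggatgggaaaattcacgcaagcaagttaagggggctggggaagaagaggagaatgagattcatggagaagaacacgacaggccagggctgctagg

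The windows are chr17:34000298-34000597 on the minus strand, chr17:35262844-35263143 on the plus strand, chr17:36032652-36032951 on the minus strand, chr2:122147437-122147736 on the plus strand, chr17:34197945-34198244 on the plus strand and chr17:34187306-34187605 on the plus strand. The kappa B core began at position -110 from the start in H2-K1 and at -170 in H2-D1, and 0.35% of the 32851 promoters in the table held it. It lay within a stretch of 47 bases that the H2-K1 and H2-D1 promoters share letter for letter. The interferon-stimulated response element core was in the H2-T23 promoter, on the opposite strand at -123, and in the B2m promoter at -139, and 8.56% of all promoters held it. Psmb8 held the gamma-activated site core at -97, as did 8.3% of all promoters. These positions depend on the start used. From a second RefSeq start of H2-K1, its kappa B core began at -124. The windows of H2-D1, Tapbp, Psmb8 and Psmb9 lie wholly within the extents of those genes given below. The windows of Tapbp, Tap1 and Psmb9 held none of the 3 sequences, which says only that these letters are not there. The same holds for any core that another window lacks, such as the interferon-stimulated response element core in H2-K1 and H2-D1. Other forms of these elements were not searched for.

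In the mouse genome (GRCm38), 9 of the 10 genes lie on chromosome 17 and B2m lies on chromosome 2, at chr2:122147686-122153083. Psmb9 (chr17:34181987-34187764), Tap1 (chr17:34187553-34197225), Psmb8 (chr17:34197721-34201454) and Tap2 (chr17:34203527-34216321) stand side by side. Tap1 and Psmb9 are read in opposite directions, their RefSeq promoter windows share 275 bases, and their exons overlap by 212 bases. H2-T24 (chr17:36005695-36020560) and H2-T23 (chr17:36029773-36032855) are neighbours. H2-K1 is at chr17:33996017-34000347, H2-D1 at chr17:35262730-35267499 and Tapbp at chr17:33915899-33929292.

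Before differentiation, all 10 genes had higher transcript levels in Abcb10-null than in WT cells. The log2 fold change ran from 0.30 for Tap2 to 2.38 for H2-T24, with a median of 1.14, against -0.002 over the 12912 genes tested. All 10 passed an adjusted p of 0.05 (edgeR's quasi-likelihood test, Benjamini-Hochberg over all genes tested). Of all genes tested, 19.7% passed as higher and 16.2% as lower, and since the genes were chosen for their values nothing is read from the contrast. In bulk RNA, fewer cells with a transcript and less of it per cell cannot be told apart. At day 2, 6 of the 10 were higher and none lower, with 14.9% and 16.9% of all genes tested passing in those directions. At day 5, 5 were higher and 2 lower, with 19.8% and 17.8% of all genes, and the median log2 fold change of the 10 was 0.67 at day 2 and 0.22 at day 5.

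**Figure D1:**
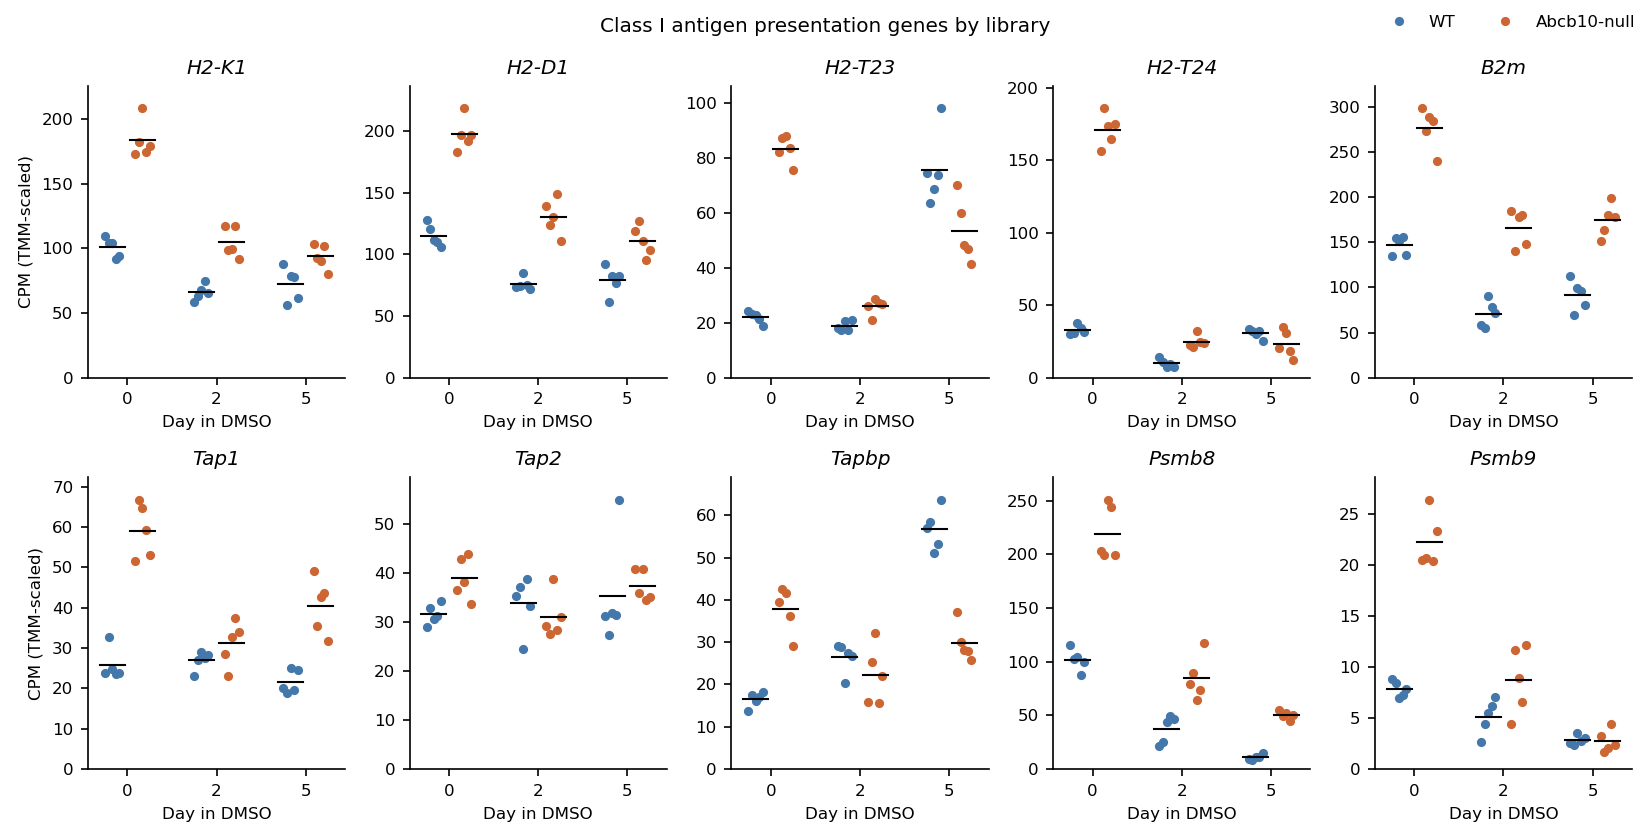
CPM of each gene (vertical axes, linear and from 0) in each of the 30 libraries, by day in DMSO (horizontal axes), with WT in blue, Abcb10-null in orange and the group mean as a bar. At day 0 the Abcb10-null libraries lie above all WT libraries for every gene but Tap2, and at day 5 the order of the means is turned for H2-T23, H2-T24, Tapbp and Psmb9, of which H2-T23 and Tapbp passed the test.

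The nonclassical heavy chain genes had the widest gaps at day 0. H2-T24 had 30.03, 30.8, 37.5, 34.2 and 31.3 CPM in the WT libraries. In the Abcb10-null libraries it had 157, 186, 173, 165 and 175 CPM. Every Abcb10-null library was thus far above every WT library, with a log2 fold change of 2.38 ± 0.08 (SE, n = 5 and 5, as for the log2 fold changes below). At day 2 the levels of H2-T24 were 14.3, 11, 7.41, 9.7 and 7.64 CPM in WT libraries and 22.7, 21, 32.0, 24.4 and 24.1 CPM in Abcb10-null cells. The groups were still apart, by 1.25 ± 0.21. By day 5 they overlapped, at 33.8, 32.3, 30.4, 32.4 and 25.2 CPM in WT libraries and 20.3, 34.9, 30.8, 18.3 and 12.3 CPM in Abcb10-null libraries, and the difference of -0.41 ± 0.23 did not pass the test (adjusted p = 0.185 by edgeR).

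H2-T23, whose product Qa-1 is also a ligand of inhibitory receptors on natural killer cells, changed order between day 0 and day 5. It began at 24.3, 23.1, 22.6, 21.3 and 18.9 CPM in WT libraries and at 82.2, 87.4, 87.9, 83.8 and 75.7 CPM in Abcb10-null libraries, which differ by 1.91 ± 0.08. The day 2 levels were 18.2, 17.3, 20.6, 17.5 and 21 CPM in WT libraries and 26, 21.2, 28.8, 27.2 and 26.7 CPM in Abcb10-null cells. The Abcb10-null libraries were all above the WT libraries, the closest pair being 21 and 21.2 CPM. The day 2 difference of 0.41 ± 0.13 had an adjusted p of 0.0337 by edgeR, which became 0.131 with all genes of at least 1 count tested, and 0.0651 to 0.0792 when any of WT replicates 1, 2 and 4 and of Abcb10-null replicates 1, 3 and 4 was left out, with log2 fold changes of 0.37 to 0.42. At day 5 WT libraries had 74.6, 63.7, 68.8, 73.9 and 98.1 CPM, and Abcb10-null libraries had 70.2, 59.9, 48.4, 46.8 and 41.3 CPM. Most Abcb10-null libraries were then below all WT libraries, replicate 1 being the exception, and the fold change was -0.52 ± 0.15. Without Abcb10-null replicate 5 it was -0.43, with an adjusted p of 0.0544 by edgeR.

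The classical heavy chain genes were higher in Abcb10-null cells at all 3 days. H2-K1 had 109, 105, 104, 92.1 and 94.3 CPM in WT libraries and 173, 183, 208, 175 and 179.5 CPM in Abcb10-null libraries at day 0. The log2 fold changes of H2-K1 were 0.86 ± 0.07, 0.62 ± 0.11 and 0.36 ± 0.13 in order of the days. At days 0 and 2 the H2-K1 groups did not overlap, and at day 5 they did, with 56.4 to 87.7 CPM in WT libraries and 80.2 to 103 CPM in Abcb10-null cells. The day 5 call for H2-K1 was a narrow pass, with an adjusted p of 0.0431 by edgeR. It was between 0.0508 and 0.0992 with any of WT replicates 2, 3, 4 and 5 or Abcb10-null replicates 1, 2, 3 and 4 left out, with log2 fold changes of 0.27 to 0.40, and it was 0.0524 with DESeq2 size factors and 0.257 with all genes of at least 1 count tested. H2-D1 differed by 0.77 ± 0.07, 0.74 ± 0.11 and 0.48 ± 0.12 at days 0, 2 and 5. With all genes of at least 1 count tested, the day 5 difference of H2-D1 had an adjusted p of 0.0575 by edgeR. Its WT and Abcb10-null libraries did not overlap at any day, with 61.5 to 92.5 CPM against 95.0 to 127 CPM at day 5.

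B2m encodes the light chain that every class I heavy chain needs at the cell surface, and it lies outside the chromosome 17 cluster. At day 0 it had 135, 155, 151, 156 and 136 CPM in WT libraries and 299, 273, 289, 284 and 240.4 CPM in Abcb10-null libraries. On day 2 these were 58.7, 54.7, 90.8, 78.5 and 71.5 CPM in WT libraries and 185, 140.0, 178, 181 and 149 CPM in Abcb10-null cells. Values at day 5 were 112, 69.8, 99.3, 96.6 and 80.0 CPM in WT libraries and 152, 164, 180.0, 199 and 178 CPM in Abcb10-null cells. The groups were apart at each day, and the log2 fold changes of 0.91 ± 0.07, 1.18 ± 0.14 and 0.92 ± 0.13 lay near 1 at each day. Per kilobase of exon, B2m was at 171 CPM per kb in WT and 322 CPM per kb in Abcb10-null cells at day 0, above every heavy chain gene, of which H2-D1 in WT (44.7 CPM per kb) and H2-T24 in Abcb10-null cells (78.4 CPM per kb) were the highest.

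The peptide transporter is a pair of Tap1 and Tap2 proteins, and their transcripts did not move alike. Tap1 had 23.7, 32.8, 24.9, 23.4 and 23.8 CPM in WT libraries and 51.4, 66.7, 64.8, 59.2 and 53.0 CPM in Abcb10-null libraries at day 0, which differ on the log2 scale by 1.19 ± 0.10. On day 2 the groups overlapped, with 23.1 to 29 CPM in WT libraries and 23.2 to 37.4 CPM in Abcb10-null cells, and the difference of 0.16 ± 0.14 did not pass (adjusted p = 0.416 by edgeR). They were apart again at day 5, with 20.18, 18.8, 25.1, 19.6 and 24.6 CPM in WT libraries and 49.1, 35.5, 42.6, 43.6 and 31.9 CPM in Abcb10-null cells, by 0.89 ± 0.14. Tap2 was the member closest between genotypes at day 0. Its group means stayed between 31.0 and 39.0 CPM in all 6 groups, and its fold changes were 0.30 ± 0.08 at day 0, -0.18 ± 0.15 at day 2 and 0.08 ± 0.17 at day 5, of which only the first passed, and not in the fit over all 30 libraries (adjusted p = 0.193 by edgeR). At day 0 the Tap2 groups overlapped by a single pair of libraries, 34.4 CPM in WT libraries and 33.7 CPM in Abcb10-null cells.

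Tapbp, which encodes tapasin, had opposite differences at days 0 and 5. Its day 0 levels were 13.8, 17.6, 16.2, 17 and 18.3 CPM in WT libraries and 39.5, 42.6, 41.5, 36.1 and 29 CPM in Abcb10-null libraries, which differ on the log2 scale by 1.19 ± 0.11. Levels at day 2 were 29.2, 28.9, 20.3, 27.5 and 26.8 CPM in WT libraries and 15.9, 25.3, 32.1, 15.6 and 21.9 CPM in Abcb10-null cells. The day 2 groups overlapped (-0.31 ± 0.21, adjusted p = 0.272 by edgeR), and the highest Abcb10-null value was that of replicate 3, the library that also had the most Abcb10. By day 5 WT cells were above Abcb10-null cells in every library, at 56.9, 58.5, 51.1, 53.2 and 63.6 CPM against 37.2, 30.1, 28.2, 27.8 and 25.8 CPM. The day 5 log2 fold change was -0.93 ± 0.12.

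**Figure D2:**
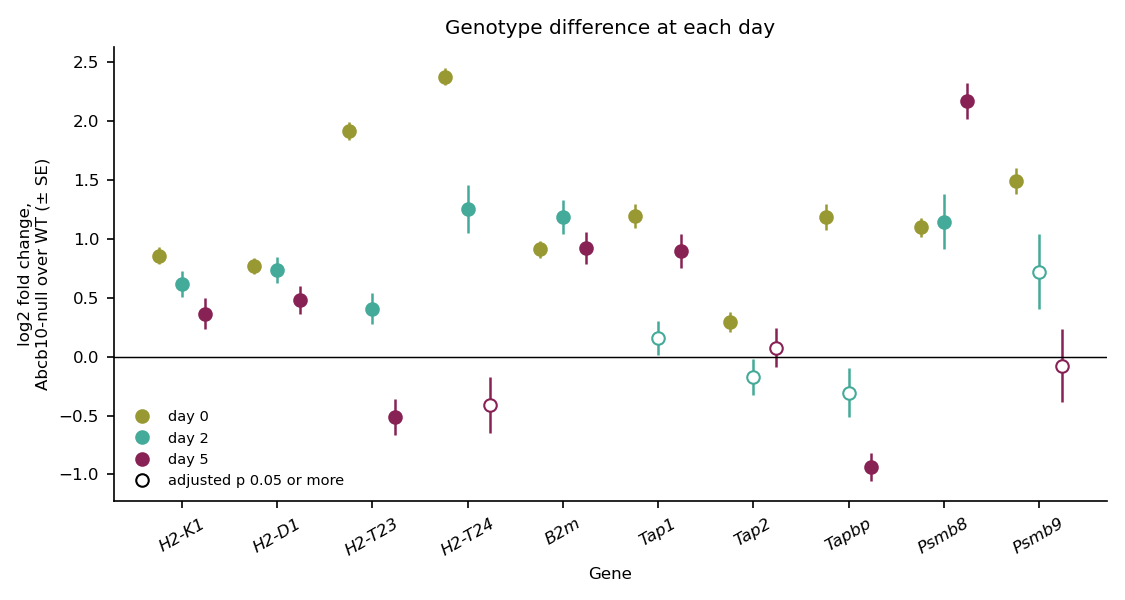
Log2 fold change of Abcb10-null over WT cells (vertical axis) with its standard error for each gene at days 0, 2 and 5, from 5 libraries a group. Filled points had an adjusted p under 0.05. B2m stays near 1 at each day, while H2-T23 and Tapbp go from above 0 at day 0 to below 0 at day 5.

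The inducible catalytic subunits of the immunoproteasome went separate ways at day 5. Psmb8 had 115, 103, 104, 87.2 and 99.9 CPM in WT libraries and 203, 199, 251, 244 and 199 CPM in Abcb10-null cells at day 0 (log2 fold change 1.10 ± 0.08). Its levels at day 2 were 21.5, 25.2, 43.5, 49.4 and 46.8 CPM in WT libraries and 79.2, 89.5, 64.6, 74.0 and 117 CPM in Abcb10-null cells (1.15 ± 0.23). The day 5 levels were 9.84, 8.14, 11.5, 10.9 and 15 CPM in WT libraries and 54.6, 49.7, 52.0, 44.4 and 50.6 CPM in Abcb10-null cells. No WT library reached an Abcb10-null library at any of the days, and the day 5 difference of 2.17 ± 0.15 was the largest of the 10 genes at that day. Psmb9 had 6.99 to 8.78 CPM in WT libraries and 20.4 to 26.4 CPM in Abcb10-null cells at day 0 (1.49 ± 0.11). Its groups overlapped at day 2 (0.72 ± 0.32, adjusted p = 0.0948 by edgeR) and at day 5 (-0.08 ± 0.31). Without Abcb10-null replicate 1 the day 2 value was 0.90 with an adjusted p of 0.0477 by edgeR, and the fit over all 30 libraries also passed (adjusted p = 0.0129 by edgeR), as did the test of all genes of at least 1 count (adjusted p = 0.0430 by edgeR). At day 5 Psmb9 had 27 to 51 counts in each library and a mean of 2.85 ± 0.46 CPM (SD, n = 5) in the WT group and 2.74 ± 1.12 CPM in the Abcb10-null group.

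Immunoproteasome subunits were next set against the constitutive subunits they replace, per kilobase of exon. The size of each ratio depends on the annotated exon lengths, which are the same for both genotypes. The ratio of Psmb8 to Psmb5 was 0.327 ± 0.021 (SD, n = 5) in the WT group and 0.778 ± 0.057 in the Abcb10-null group at day 0, and 0.0868 ± 0.0140 against 0.234 ± 0.032 at day 5. Psmb9 to Psmb6 was 0.0136 ± 0.0008 in the WT group and 0.0427 ± 0.0050 in the Abcb10-null group at day 0, and 0.00814 ± 0.00127 against 0.00621 ± 0.00323 at day 5. For the third pair, Psmb10 to Psmb7, the day 0 ratios were 0.489 ± 0.042 in the WT group and 0.464 ± 0.030 in the Abcb10-null group. The first 2 ratios did not overlap between genotypes at day 0, whereas the Psmb10 ratio ran from 0.447 to 0.539 in WT and from 0.430 to 0.507 in Abcb10-null cells. At day 5 the Psmb10 ratio was 0.0913 ± 0.0191 in the WT group and 0.138 ± 0.024 in the Abcb10-null group, with overlapping ranges of 0.0653 to 0.113 and 0.105 to 0.162.

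In WT cells more of these genes fell than rose with days in DMSO, and H2-T23 and Tapbp were above their day 0 levels at day 5. From day 0 to day 2, 1 of the 10 genes rose (Tapbp, log2 fold change 0.68 ± 0.12) and 6 fell, while 31.5% of all genes tested rose and 30.7% fell. At day 5 against day 0, 2 rose, H2-T23 by 1.78 ± 0.12 and Tapbp by 1.77 ± 0.11, and 5 fell, while 36.5% of all genes rose and 34.7% fell. Psmb8 was at -1.45 ± 0.21 at day 2 and had the largest fall at day 5, -3.20 ± 0.15. Psmb9 was at -0.61 ± 0.23 and -1.46 ± 0.18, B2m at -1.05 ± 0.13 and -0.68 ± 0.12, H2-K1 at -0.61 ± 0.09 and -0.48 ± 0.12 and H2-D1 at -0.61 ± 0.08 and -0.54 ± 0.11. The Psmb9 fall at day 2 had an adjusted p of 0.0331 by edgeR, and it lay between 0.0510 and 0.0774 without WT day 0 replicate 1, 2 or 5 or WT day 2 replicate 1, 2 or 3, with a log2 fold change of -0.40 without day 2 replicate 1. H2-T24 went down and came back, at -1.71 ± 0.17 on day 2 and -0.09 ± 0.11 on day 5, the latter not passing. Tap1 and Tap2 did not pass at either day, with values between -0.25 and 0.16, nor did H2-T23 at day 2 (-0.22 ± 0.11). With 1 library left out, the day 2 value of H2-T23 was -0.28 without WT day 0 replicate 5 (adjusted p = 0.0476 by edgeR) and that of Tap2 was 0.23 without WT day 2 replicate 3 (adjusted p = 0.0383 by edgeR).

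In Abcb10-null cells no member rose. From day 0 to day 2, 9 of the 10 genes fell (20.1% of all genes tested fell and 23.1% rose), and at day 5, 9 fell (33.3% of all genes fell and 33.9% rose). H2-T24 had the largest fall at day 2, -2.76 ± 0.12, and was at -2.86 ± 0.21 at day 5, when Psmb9 was at -3.05 ± 0.21 and Psmb8 at -2.12 ± 0.09. H2-T23 fell by 1.66 on the log2 scale at day 2 and by 0.64 at day 5. H2-K1 and H2-D1 were at -0.78 ± 0.10 and -0.57 ± 0.10 at day 2 and at -0.97 ± 0.09 and -0.82 ± 0.09 at day 5. B2m and Tap1 fell at both days, B2m by 0.71 and then 0.66, and Tap1 by 0.90 and then 0.54. Tapbp was at -0.74 ± 0.19 at day 2 and at -0.33 ± 0.12 at day 5. The day 5 call for Tapbp had an adjusted p of 0.0260 by edgeR, which became 0.0505 to 0.0718 without Abcb10-null day 0 replicate 1, 2 or 3 or day 5 replicate 3, 4 or 5, with log2 fold changes of -0.28 to -0.32, and 0.0583 in the fit over all 30 libraries. Tap2 did not pass at either day, with -0.30 ± 0.12 and -0.05 ± 0.10, but at day 2 it was at -0.36 without day 0 replicate 5 (adjusted p = 0.0401 by edgeR) and at -0.38 without day 2 replicate 3 (adjusted p = 0.0169 by edgeR).

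**Figure D3:**
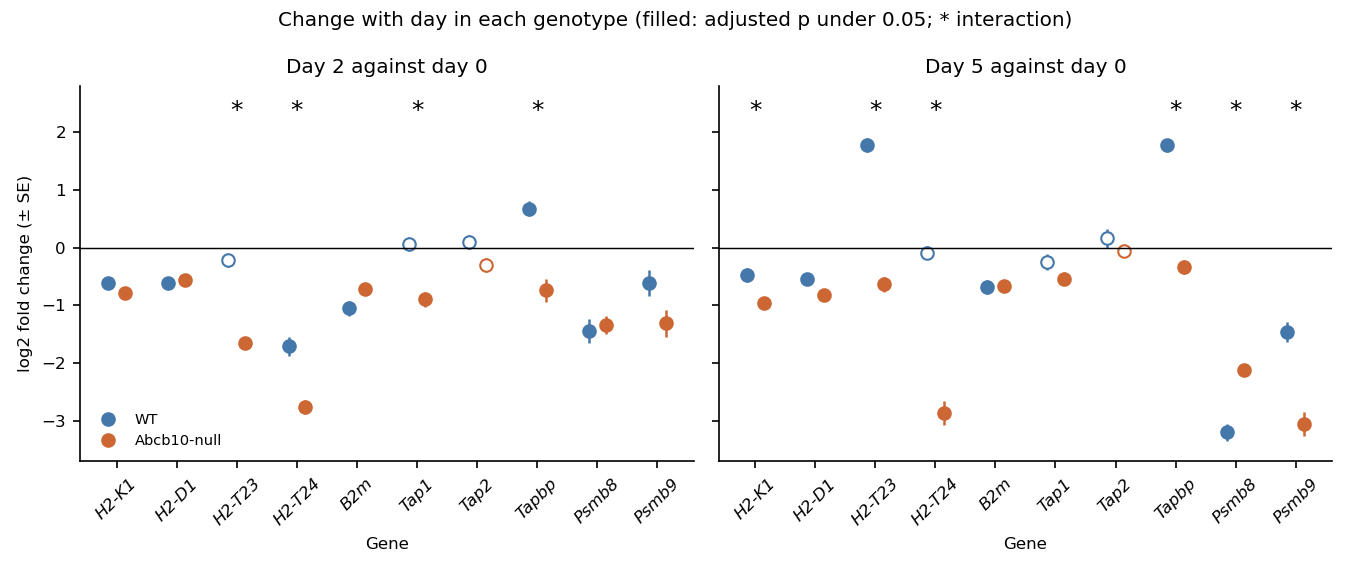
Log2 fold change from day 0 to day 2 (left) and from day 0 to day 5 (right) with its standard error, in WT (blue) and Abcb10-null cells (orange), 5 libraries a group. Filled points had an adjusted p under 0.05, and an asterisk marks a gene whose change differed between genotypes by the interaction test. H2-T23 and Tapbp rose to day 5 in WT cells and fell in Abcb10-null cells.

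The test of the interaction asks directly whether the change with day differed between genotypes. It shares its libraries with the comparisons above and so adds no separate evidence. For day 2 against day 0, 4 genes had a lower change in Abcb10-null cells and none a higher one, beside 10.8% and 12% of all genes tested. They were H2-T23 (-1.46 ± 0.14), Tapbp (-1.44 ± 0.24), H2-T24 (-1.07 ± 0.20) and Tap1 (-0.99 ± 0.18). Tap2 (-0.42 ± 0.17) joined them without WT day 2 replicate 3 (-0.56, adjusted p = 0.0133 by edgeR) or Abcb10-null day 2 replicate 3 (-0.56, adjusted p = 0.0254 by edgeR). Psmb9 (-0.73 ± 0.34) did so without WT day 2 replicate 1 (-0.93, adjusted p = 0.0384 by edgeR) or Abcb10-null day 2 replicate 2 (-0.87, adjusted p = 0.0454 by edgeR). For day 5 against day 0, 5 genes had a lower change and 1 a higher one, beside 14.7% and 16.8% of all genes. The lower ones were H2-T24 (-2.76 ± 0.26), H2-T23 (-2.41 ± 0.18), Tapbp (-2.10 ± 0.17), Psmb9 (-1.57 ± 0.27) and H2-K1 (-0.48 ± 0.15), and Psmb8 was higher (1.09 ± 0.17). H2-D1 (-0.27 ± 0.14) passed only without WT day 5 replicate 2 (-0.34, adjusted p = 0.0384 by edgeR). B2m differed least at day 5, by 0.03 ± 0.15.

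Leaving out the 2 libraries that stood apart changed few calls. Without Abcb10-null day 5 replicate 4, 6 of the 10 genes passed between genotypes at day 5 rather than 7, H2-K1 being lost (0.34, adjusted p = 0.0854 by edgeR), and 8 rather than 9 passed for day 5 against day 0, Tapbp being lost. Without Abcb10-null day 2 replicate 3, 5 rather than 6 passed between genotypes at day 2, H2-T23 being lost, 10 rather than 9 fell from day 0 to day 2, and 5 rather than 4 passed the day 2 interaction.

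Levels were also ordered between genes per kilobase of exon, with the length taken over all annotated exons of a gene. This length ran from 860 bases for B2m to 5476 bases for Tap1. It can exceed that of the transcripts present, so the order depends on the annotation as well as on the SDs. In WT cells at day 0 the order was B2m (171 CPM per kb), H2-D1 (44.7), H2-K1 (34.3), Psmb8 (30.1), H2-T24 (15), Tap2 (8.36), H2-T23 (7.63), Tap1 (4.70), Tapbp (4.57) and Psmb9 (2.15). Neighbours that lay closer than the sum of their SDs were H2-K1 and Psmb8 (SDs of 2.49 and 2.99), Tap2 and H2-T23 (0.553 and 0.712) and Tap1 and Tapbp (0.725 and 0.481). In Abcb10-null cells at day 0, H2-T24 (78.4) and H2-D1 (76.5) followed B2m, with SDs of 5.06 each, and did not differ beyond them. By day 5 Psmb8 had gone to 3.28 CPM per kb in WT, with only the mean of Psmb9 (0.78) lower, and was at 14.9 CPM per kb in Abcb10-null cells. In WT at day 5 it lay closer to Tap1 (3.96) than the sum of their SDs (0.751 and 0.543). H2-T23, at 26.3 CPM per kb, was above H2-K1 (24.6) in WT cells at day 5, within their SDs of 4.57 and 4.43.

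Over the 30 libraries the members did not form a single pattern. The pair closest in log2 CPM was H2-K1 and H2-D1, with a Pearson r of 0.96, followed by H2-D1 and B2m at 0.92. H2-K1 and H2-D1 also share sequence, as given further on. Tapbp and Psmb8 were the most opposed, at -0.48, and Tapbp was closest to H2-T23, at 0.77. These values describe libraries that share genotype, day and depth. The 5 genes outside the list most like its mean profile, of 12142 genes with a mean of at least 1 CPM, were Tgtp2 (r = 0.95), Usp18 (0.92), Irgm1 (0.92), Oas1a (0.92) and Ikzf2 (0.92). Tgtp2 and Irgm1 encode interferon-inducible GTPases, Oas1a an antiviral oligoadenylate synthetase, and Usp18 an inhibitor of interferon receptor signalling. Tgtp2 has a near-identical copy in the genome, Tgtp1, so its counts are uncertain. Its group mean was 25.2 CPM in Abcb10-null cells at day 0 and at most 1.98 CPM in any other group. It thus passed the floor of 1 CPM through the group where the members were also high, and its r rests on that group. Irgm1 was at 17.5 CPM in WT libraries and 106 CPM in Abcb10-null cells at day 0, and at 23.7 and 25.5 CPM at day 5.

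Other genes of the pathway were read from lists of named genes. Of 22 other class I and class I-like heavy chain genes, 12 were tested at day 0, and 9 were higher and none lower in Abcb10-null cells, beside the 19.7% and 16.2% given above. H2-Q10 (1.17 ± 0.17), H2-T22 (0.99 ± 0.09), H2-T10 (0.98 ± 0.14), H2-M3 (0.91 ± 0.19) and H2-Q1 (0.88 ± 0.22) had the largest differences. At day 2, 1 of 11 tested was higher, and at day 5, 1 was higher and H2-T22 was lower (-0.79 ± 0.14). Beside them, 14.9% of all genes tested were higher and 16.9% lower at day 2, and 19.8% and 17.8% at day 5. Among 7 other loading and trimming genes, Erap1, the aminopeptidase that trims peptides in the endoplasmic reticulum, was higher at all 3 days (1.11 ± 0.08, 0.80 ± 0.19 and 0.49 ± 0.11). The general chaperone genes Calr and Canx were at -0.07 ± 0.09 and 0.02 ± 0.06 at day 0, neither passing. At day 2 Calr was lower (-0.77 ± 0.19), and at day 5 H13 (1.081 ± 0.162), Tapbpl (0.89 ± 0.26) and Canx (0.63 ± 0.11) were higher.

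Of the other immunoproteasome genes, the proteasome activator gene Psme1 was higher at each day (0.80 ± 0.07, 0.40 ± 0.13 and 0.71 ± 0.15). Its partner Psme2 was higher at day 0 (0.45 ± 0.10) and did not pass later. Psmb10, the remaining inducible catalytic subunit, was lower at day 0 (-0.27 ± 0.07), unlike Psmb8 and Psmb9. Pomp, a proteasome assembly factor, was lower at day 5 (-0.65 ± 0.12). The 14 constitutive 20S subunits had 1 higher and 1 lower gene at day 0, none at day 2, and 2 higher and 3 lower at day 5. Of all genes, 19.7% were higher and 16.2% lower at day 0, 14.9% and 16.9% at day 2, and 19.8% and 17.8% at day 5. Psmb5, Psmb6 and Psmb7, the constitutive catalytic subunits, were at -0.15 ± 0.08, -0.16 ± 0.07 and -0.19 ± 0.08 at day 0, none passing, and at day 5 Psmb5 (0.72 ± 0.18) and Psmb6 (0.36 ± 0.13) were higher. In WT cells all 14 fell from day 0 to day 5, with a median of -1.19, while 34.7% of all genes tested fell.

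Among 17 regulators of class I transcription, 15 were tested at day 0. Of these, 7 were higher and none lower, beside 19.7% and 16.2% of all genes tested. Irf7 had the largest difference, from 2.24 to 62.0 CPM (4.77 ± 0.18), followed by Irf9 (1.80 ± 0.09), and Irf1 was at 0.94 ± 0.13. Nlrc5, the class I transactivator, had a mean of 0 CPM in both genotypes at day 0 and at most 0.748 CPM in any group, and was not tested. At days 2 and 5 the list had 4 higher and 4 lower genes, with Irf2 (-1.25 ± 0.26) and Rela (-1.07 ± 0.26) lower at day 2. These counts stand beside 14.9% higher and 16.9% lower of all genes at day 2, and 19.8% and 17.8% at day 5. Of 9 genes of interferon receptors and signalling, Usp18 went from 4.07 to 70.4 CPM at day 0 (4.11 ± 0.11), Jak2 was higher (0.49 ± 0.06) and so was the interferon gamma receptor gene Ifngr1 (0.67 ± 0.06). Ifngr1 remained higher at day 5 (0.71 ± 0.12), when Ifnar2 was also higher (0.55 ± 0.19), and Socs1 was higher at day 2 (1.48 ± 0.49).

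Transcripts of interferons themselves were at or near 0. At day 0, 20 of 21 interferon genes had no count in any WT library and 20 of 21 none in any Abcb10-null library, and their sum was at most 0.113 CPM. The sum reached 3.43 CPM only in Abcb10-null day 5 replicate 4, from 33 counts, the library with counts in the most genes. Of 11 MHC class II genes, 4 were tested at day 0 and H2-DMa was higher (0.39 ± 0.11), and H2-Oa was higher at day 2 (1.45 ± 0.49), while Cd74 and H2-Ab1 had at most 0.129 and 0.0483 CPM in any group.

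**Figure D4:**
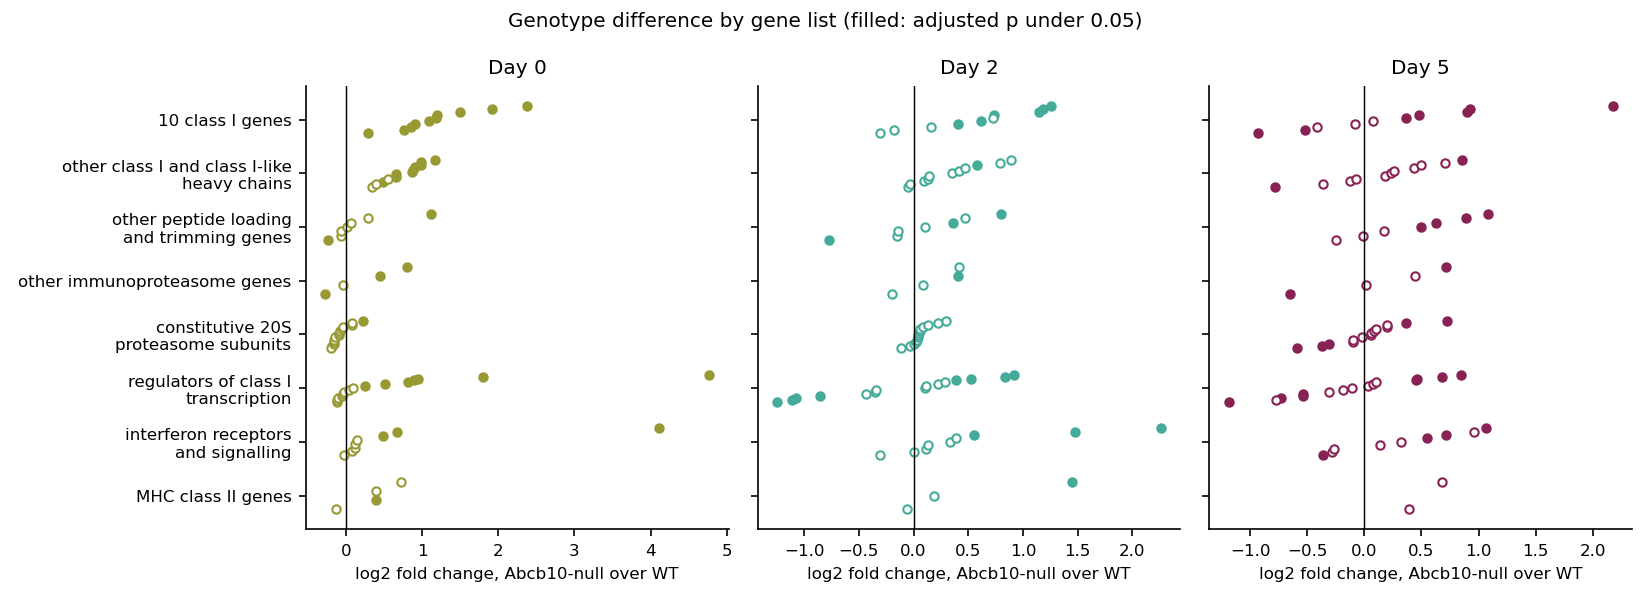
Log2 fold change of Abcb10-null over WT cells (horizontal axes, whose scales differ between days) for each tested gene of 8 lists at days 0, 2 and 5. Filled points had an adjusted p under 0.05. At day 0 the class I heavy chain genes lie to the right of 0 and the constitutive 20S subunits lie around it.

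Markers of other cells were low, and some moved with genotype. At day 0 the 8 macrophage and granulocyte markers summed to 7.59 to 9.18 CPM in WT libraries and 9.63 to 14 CPM in Abcb10-null libraries, with Csf1r at 0.636 and 1.92 CPM and Ly6g at 0 in both. Of the 3 tested, Csf1r (1.56 ± 0.36) and Lyz2 (1.52 ± 0.37) were higher. At day 5 these markers summed to 1.80 to 5.10 CPM and 2.15 to 11.1 CPM, and Lyz2 was higher (2.18 ± 0.63), from a mean of 0.297 to 1.37 CPM. At day 0 the 5 fibroblast markers summed to 0.508 to 1.53 CPM in WT libraries and 1.92 to 3.31 CPM in Abcb10-null libraries. Pdgfrb was then higher (0.86 ± 0.32). Dendritic cell markers summed at day 0 to 1.81 to 2.89 CPM in WT libraries and 1.15 to 3.28 CPM in Abcb10-null cells. At day 5 the lymphocyte sums were 0.644 to 3.19 CPM in WT and 0 to 8.93 CPM in Abcb10-null libraries. Dendritic cell sums were then 4.51 to 8.14 CPM and 3.34 to 11.2 CPM, and fibroblast sums 2.17 to 5.38 CPM and 2.16 to 9.76 CPM. The 10 class I genes summed at day 0 to 571 to 629 CPM in WT libraries and 1205 to 1398 CPM in Abcb10-null libraries. Their day 5 sums were 399 to 522 CPM in WT libraries and 561 to 650 CPM in Abcb10-null libraries. Erythroid markers differed too at day 5, when all 15 tested were lower in Abcb10-null cells, beside 17.8% of all genes tested. Among the most lowered were Slc4a1 (-3.13 ± 0.40), Tfrc (-3.09 ± 0.33) and Hbb-bt (-2.58 ± 0.36). At day 0 the erythroid sum was 2851 to 3069 CPM in WT libraries and 2875 to 3212 CPM in Abcb10-null libraries, and the median log2 fold change of the 14 tested was -0.03. Tfrc was higher then (0.25 ± 0.08) and 5 were lower, beside 19.7% and 16.2% of all genes tested. The 5 included Hba-a1 (-3.21 ± 0.43) and Hbb-bs (-2.41 ± 0.17), although globin RNA was depleted from the libraries. The part of these markers in the class I values was not tested.

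The other genes around the members on chromosome 17 were not higher as a block at day 0. Between chr17:33915899 and 36032855 lie 196 other genes, among them several of the other heavy chain genes. At day 0, 91 were tested, and 24.2% were higher and 18.7% lower in cells without Abcb10, beside 19.7% and 16.2% of all genes. The median of their log2 fold changes was -0.07. At day 2, 6.82% of 88 were higher and 15.9% lower, beside 14.9% and 16.9% of all genes. The stretch was uneven at day 5, with 23.8% of 84 higher and 4.76% lower, beside 19.8% and 17.8% of all genes. The day 5 median was 0.08.

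Heavy chain genes resemble each other, and reads may be exchanged between them. Of all 51-base windows of their annotated exons, the read length, 9.22% in H2-K1, 12.2% in H2-D1, 14% in H2-T23 and 3.03% in H2-T24 also occur in another gene, and none of those of B2m do. H2-K1 and H2-D1 shared 132 windows with each other. Tapbp had the largest share, 23%. Of its exon bases, 24.9% lie opposite the antisense gene Gm19412, which had 254 counts over all libraries against 15081 for Tapbp. A further overlap of 149 exon bases (4.11%) is with the protein-coding gene Zbtb22, which had 10702 counts. Zbtb22 is on the same strand, so strand cannot tell the reads of that overlap apart. Since the strand setting of the counting was not given in the sources used here, overlapping genes such as Tap1 and Psmb9 may exchange counts.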

How the data were processed

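Total RNA of WT and of Abcb10-null MEL cells was sequenced in 30 libraries. The authors removed rRNA and globin transcripts before building strand-specific libraries, then trimmed the reads, aligned them to GRCm38 with STAR (2.6.1b), and counted them per Ensembl gene with featureCounts (1.6.3). The deposited values are raw read counts per gene, not normalized. How the counting treated strand, multimapped reads and fragments is not given in the sources used here. Totals of 9906783 to 20157768 counts a library limit the precision for low genes such as Psmb9.

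Groups came from the sample labels. Genes were tested with edgeR 4.0.16 in R 4.3.3 (TMM, filterByExpr, glmQLFit, glmQLFTest, Benjamini-Hochberg adjusted p under 0.05 over all genes tested), each comparison with only its own libraries: 10, or 20 for an interaction. SE is the log2 fold change over the root of F. DESeq2 1.42.0, its size factors, 2 other filters, a fit over all libraries, omission of globin genes, mitochondrial genes and small RNA genes, a replicate block and each library left out were alternatives. On simulated counts for Abcb10-null against WT at day 5, with 12441 genes, 91 of 100 genes changed by 2 on the log2 scale and 65 of 100 changed by 1 were recovered. For the day 5 interaction, with 13686 genes, these were 80 of 100 and 59 of 100. Symbols and coordinates are from GENCODE M21 (GRCm38), which held 54495 of the 54532 identifiers. The members and lists were chosen with earlier results of these data known. All members are named in every comparison. Other lists name at most 5 genes past the threshold by size of the genotype difference, with Nlrc5, Irf1, Psmb10, Psme1, Psme2, Erap1, Psmb5, Psmb6 and Psmb7 in any case, and a further gene under this rule is not reported here. The levels of Irgm1, Tgtp2 and Ikzf2, among the 5 genes most like the members' mean z-score, were singled out after their values were seen. So were H2-Ab1, Cd74 and Ly6g.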

Additional observations from a re-analysis of the deposited data

Results flagged for a closer look

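Of 60 sets of 5 libraries (10 genes in 6 groups), 5 held a library far from the other 4 by Dixon's test at the 95% level, which chance gives in about 1 of 20 sets. H2-K1 had 208 CPM in Abcb10-null day 0 replicate 3, against 173 to 183 CPM in the others. Tap1 had 32.8 CPM in WT day 0 replicate 2, against 23.4 to 24.9 CPM. WT day 2 replicate 3 stood out for both H2-D1, at 84.6 CPM against 71.8 to 74.9 CPM, and Tapbp, at 20.3 CPM against 26.8 to 29.2 CPM. Tap2 had 54.9 CPM in WT day 5 replicate 5, against 27.3 to 31.8 CPM, and without this library its change from day 0 to day 5 in WT cells was -0.058 rather than 0.16 on the log2 scale.

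The change with day differed between genotypes, by the interaction test of edgeR, for 7 genes. From day 0 to day 2 the log2 change in Abcb10-null cells minus that in WT cells was -1.46 for H2-T23, -1.44 for Tapbp, -1.07 for H2-T24 and -0.99 for Tap1. From day 0 to day 5 the difference was -2.76 for H2-T24, -2.41 for H2-T23, -2.10 for Tapbp, -1.57 for Psmb9 and -0.48 for H2-K1, and 1.09 for Psmb8. H2-K1 had an adjusted p of 0.0162 by edgeR, and 0.104 with all genes of at least 1 count tested.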

How the results depend on the processing

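The number of members passing the test stayed within 1.5 times its reported value in all 9 comparisons, under the 7 other settings and with each library left out, and the median log2 fold change of the members moved by less than the spread between replicates. Of 630 single values under the other settings, 611 kept direction and call, 8 lost the call, 6 gained it and 5 changed sign, and of 1100 with 1 library left out, 1038 kept both, 27 lost the call, 10 gained it and 25 changed sign. None of the values that changed sign had passed the test. For H2-D1 the day 2 interaction was -0.0033 with DESeq2, -0.0017 with DESeq2 size factors, -0.0275 when every library had to reach 10 counts and -0.0050 after globin genes, mitochondrial genes and small RNA genes were dropped, and for B2m the day 5 interaction was -0.0138 when every library had to reach 10 counts. The cause was not tested.

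With 1 library left out, the day 5 genotype difference ran from -0.0136 to 0.276 for Tap2 and from -0.306 to 0.0379 for Psmb9, the WT change from day 0 to day 5 from -0.0583 to 0.243 for Tap2, the day 2 interaction from -0.0683 to 0.0654 for H2-D1 and from -0.0898 to 0.174 for Psmb8, and the day 5 interaction from -0.0540 to 0.101 for B2m and from -0.281 to 0.0037 for Tap2. The day 2 change of Tap2 in Abcb10-null cells passed with DESeq2 size factors (adjusted p = 0.0494 by edgeR) and with at least 10 counts demanded of each library (adjusted p = 0.0419 by edgeR), as did its day 2 interaction in the latter (adjusted p = 0.0458 by edgeR).

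Over all genes, 1584 rather than 4642 passed between genotypes at day 0 in the fit over all 30 libraries, which takes its spread from all days. At day 2 the number was 4151, which became 2744 when WT replicate 2 was omitted and 2665 when Abcb10-null replicate 1 was. With all genes of at least 1 count tested, the median over all genes for day 5 against day 0 was 1.35 in WT and 1.53 in Abcb10-null cells (0.44 and 0.34 with DESeq2), while the members' medians moved by less than the spread.

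The labels do not say whether libraries with the same replicate number belong together, and no pairing was evident. In 75 same-numbered pairs, deviations from the group means correlated at -0.40 to 0.52, with a median of -0.03 and 17 over 0.1. With the replicate number as a block, the members passing were 10, 6 and 7 between genotypes at days 0, 2 and 5, as reported, though Psmb9 (adjusted p = 0.0468 by edgeR) took the place of H2-T23 (adjusted p = 0.0608 by edgeR) at day 2, and 4220 genes passed at day 0 over all genes.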
